A study of Mus musculus with 23 samples.

Results

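The 10 muscle splicing regulators described here are the RNA-binding proteins Mbnl1, Mbnl2, Mbnl3, Celf1, Celf2, Rbfox2, Rbm20, Rbm24, Ptbp1 and Ptbp2. They were taken by gene symbol from the deposited count and TPM tables, which list 32793 genes, and all 10 were among the 14187 genes with enough counts to be tested. RNA selected for poly(A) tails was sequenced from C2C12 cells, an established mouse myoblast line that fuses into myotubes when serum is withdrawn. Cells were control (here WT) or Runx1KO, and Runx1 is a transcription factor of the Runt family. They were harvested in growth medium with 20% FBS (day 0) or after 1, 3 and 6 days in medium with 2% horse serum. The day numbers follow the sample titles, since the series text puts the last time point at 5 days. The 23 libraries formed 8 groups of 3, except that the WT group on day 0 held 2. The labels name neither the clones nor how Runx1 was disrupted, and they do not say whether replicates were separate cultures, so p-values measure only the spread between these libraries.

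Splicing regulators of these families bind short motifs in precursor mRNA and decide whether a neighbouring exon is kept or skipped. Muscle cells exchange an early set for a late one as they mature: PTB proteins (Ptbp1, Ptbp2) and CELF proteins (Celf1, Celf2) hold back many muscle exons or favour fetal forms. Of the MBNL proteins (Mbnl1 to Mbnl3), Mbnl1 and Mbnl2 promote many of the forms found in adult muscle, as do Rbfox2, Rbm20 and Rbm24. Mbnl3 is instead linked to proliferating myoblasts. MBNL proteins are sequestered by expanded RNA repeats in myotonic dystrophy, in which CELF1 is raised, and RBM20 is known for its control of titin splicing.

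Before the regulators themselves, 3 features of the libraries touch every result. Runx1 mRNA was at no time point reduced in the libraries labelled KO. It differed by 0.51, 0.35, 0.54 and 1.02 on the log2 scale on days 0, 1, 3 and 6 and was higher in them each time (83.9 to 165 CPM in WT and 117 to 319.7 CPM in them, where CPM is the count as a share of the TMM-scaled library total), so they are called KO-labelled here and directions are given for the labels only. Runx1 protein was not measured, so these mRNA levels do not show whether the knockout removed it. Total counts lay between 22197606 and 23684077 per library. Replicates differed by more than sampling noise in every group (chi-square per degree of freedom 3.07 to 58.8), and the 2 values above 27.3 were those of replicate 2 of the KO-labelled day 1 group. Day 1 level calls of the 10 regulators that change without this library are therefore named. The summed TPM (the share of all transcripts, corrected for transcript length) of 8 myogenic markers went from 942 to 954 in WT on day 0 to 2970 to 3380 on day 6, and from 1260 to 1300 to between 12400 and 14200 in KO-labelled libraries. Most of the rise came from Acta1, the skeletal actin, which averaged 0.455 TPM on day 0 and 1410 TPM on day 6 in WT and 0.963 and 8550 TPM in KO-labelled libraries. Myod1, an early myogenic factor, went the other way, from 378 to 191 TPM and from 440 to 214 TPM. Myf5 averaged 28.3 TPM on day 0 and 31.2 TPM on day 6 in WT, and 10.1 and 22.4 TPM in KO-labelled libraries. Myog, the late differentiation factor, averaged 201 TPM in WT and 1120 TPM in KO-labelled libraries on day 6. How much of the differences between genotypes goes with this marker difference was not tested, and in bulk RNA more cells of a kind cannot be told apart from more RNA per cell. Of the markers of other cell types, the adipocyte (5 genes), endothelial (4) and epithelial (4) sums stayed at or below 2.18 TPM. In the neural list of 5 genes the sum (22.8 to 150 TPM) came almost wholly from Tubb3, with Rbfox3 and Snap25 at or near 0. The leukocyte sum of 4 genes reached 15.2 to 17 TPM on day 6 in KO-labelled libraries, against 4.14 to 7.79 TPM in WT, through Cd68, while Adgre1 was at 0 in all libraries.

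In RefSeq's GRCm38.p6 assembly, which is the mm10 build named in the submitters' processing notes, the MBNL genes lie on chromosome 3 (Mbnl1, chr3:60472559-60629750), chromosome 14 (Mbnl2, chr14:120275652-120431698) and the X chromosome (Mbnl3, chrX:51113494-51205990). Both CELF genes are on chromosome 2 (Celf1, chr2:90940259-91019497, and Celf2, chr2:6539694-7396341). Rbfox2 is at chr15:77078990-77308434, Rbm20 at chr19:53660989-53867083 and Rbm24 at chr13:46418102-46431099. Ptbp1 is at chr10:79854432-79864435 and Ptbp2 at chr3:119718741-119784647. All 10 are protein-coding genes. Promoter sequences were matched by symbol for 8 of the 10, not for Rbfox2 and Rbm20. The 250 bases before a RefSeq transcript start are shown for Rbm24 and Ptbp1, because these were the regulators whose levels moved most, in opposite directions. Capitals mark E-boxes, that is, any match to the pattern CANNTG, which reads the same on both strands. MyoD-family factors bind some forms of it, and binding to the marked sites was not tested. The Rbm24 window is chr13:46418050-46418299 and the Ptbp1 window chr10:79854182-79854431, both on the plus strand.
Rbm24: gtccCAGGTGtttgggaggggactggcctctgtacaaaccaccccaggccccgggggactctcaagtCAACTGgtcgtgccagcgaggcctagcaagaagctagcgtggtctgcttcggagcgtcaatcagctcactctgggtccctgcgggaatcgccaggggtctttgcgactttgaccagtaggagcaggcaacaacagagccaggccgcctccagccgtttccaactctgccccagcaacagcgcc
Ptbp1: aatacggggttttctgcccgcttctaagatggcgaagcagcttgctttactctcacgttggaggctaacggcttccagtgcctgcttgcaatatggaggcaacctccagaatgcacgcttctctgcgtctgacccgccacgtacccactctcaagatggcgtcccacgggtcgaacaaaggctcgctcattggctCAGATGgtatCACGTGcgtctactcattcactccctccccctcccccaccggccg
Each window held 2 E-boxes, at 246 and 183 bases before the transcript start that follows the Rbm24 window and at 55 and 45 bases before the start of Ptbp1. RefSeq's Rbm24 gene record begins at 46418102, inside that window, so the second Rbm24 E-box lies within the annotated gene. The 8 genes have 13 such windows in all, 5 of them of Celf2, of which 2 overlap and share the same 2 E-boxes. At least 1 E-box stood in 7 of the 13 (of Mbnl1, Celf2, Rbm24 and Ptbp1), and in 66.2% of 32851 promoter windows of the same length. The form CAGCTG, which is one of the CANNTG sequences, was in none of their windows and in 13% of all. The Runt motif TGTGGT was searched on both strands and was in none of their windows and in 14.0% of all. The looser TGNGGT, of which TGTGGT is one form, was in 40.1% of all windows and in 5 of the 13 (of Mbnl1, Mbnl3, Celf1, Celf2 and Rbm24), in the Rbm24 window 210 bases before that transcript start.

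Per unit of transcript length, Ptbp1 was by far the most abundant of the 10 in growth medium and Rbm24 the least. On day 0 in WT, Ptbp1 averaged 453 ± 0.658 TPM (SD, n = 2) and Rbm24 0.465 ± 0.0212 TPM. Mbnl2, Rbfox2, Mbnl1 and Celf1 followed Ptbp1 at means of 62.2, 58.6, 55.4 and 44.5 TPM, and Ptbp2, Celf2, Rbm20 and Mbnl3 were at 29.4, 18.1, 7.04 and 4.59 TPM. By day 6 the spread between genes had narrowed in WT: Ptbp1 averaged 157.9 TPM, Rbfox2 85.6, Mbnl2 79.3, Mbnl1 64.4 and Rbm24 22.4 TPM. In KO-labelled libraries on day 6, Ptbp1 averaged 138 TPM, Rbfox2 102.8, Rbm24 46.7 and Mbnl3 0.903 TPM. From growth medium to day 6, 8 of the 10 passed the test in WT (4 higher, 4 lower) and 9 in KO-labelled libraries (4 higher, 5 lower). Among all genes tested, 63.6% and 70% passed in the same comparisons (edgeR's quasi-likelihood test on counts, Benjamini-Hochberg adjusted p under 0.05). Genes in general were higher in 32.6% and 36.6% of cases and lower in 31.1% and 33.5%, so change by itself does not set these regulators apart.

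**Figure D1:**
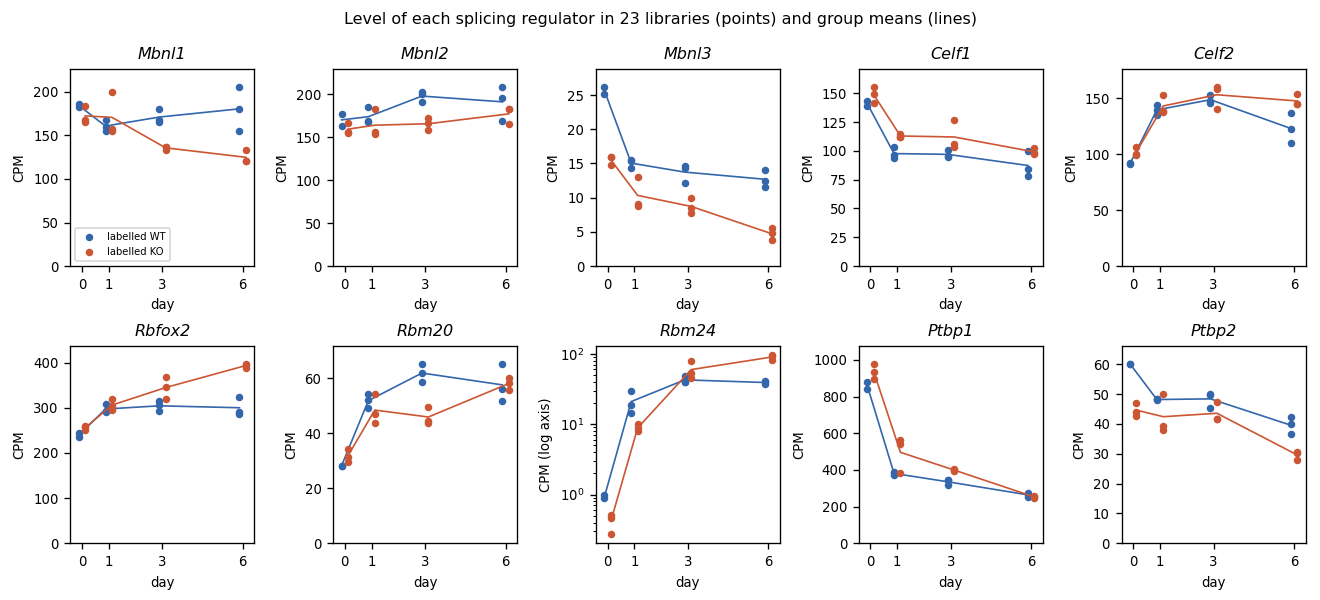
Level of each regulator in CPM (scaled by TMM) against day, with 1 point per library, lines through the group means, and a log axis for Rbm24 only. Ptbp1 fell from 839 to 978 CPM on day 0 to 247 to 276 CPM on day 6 over both genotypes while Rbm24 rose from 0.272 to 0.972 CPM to between 36.9 and 96.2 CPM.

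Ptbp1, the general repressor of muscle and neuronal exons, fell steeply in both genotypes. In WT it was at 839 and 881 CPM on day 0, at 386, 370.0 and 387 on day 1, at 343, 344 and 319.7 on day 3, and at 255, 276 and 261 on day 6. KO-labelled libraries held 898, 937 and 978 CPM on day 0, at 563, 385 and 539.9 on day 1, at 407, 399 and 393 on day 3, and at 259, 251 and 247 on day 6. No library after day 0 reached the day 0 range of either genotype. By day 6 the fall was 3.26-fold in WT (log2 fold change -1.70, SE 0.10, edgeR adjusted p = 1.37e-12) and 3.71-fold in KO-labelled libraries (-1.89, SE 0.095, edgeR adjusted p = 2.66e-14). On day 1 Ptbp1 was higher in KO-labelled libraries by 0.38 (log2, SE 0.092, edgeR adjusted p = 0.00194), although replicate 2 of that group, at 385 CPM, lay inside the WT range of 370.0 to 387. Without that library the difference was 0.51 (edgeR adjusted p = 2.52e-07, the smallest over 32 alternatives, where the largest was 0.0752). On day 3 the groups did not overlap and the difference was 0.25 (SE 0.092, edgeR adjusted p = 0.0307), a call that was lost in 18 of 32 alternatives, whose adjusted p ran from 0.00148 to 0.364. On day 6 the groups overlapped (-0.07, SE 0.093, edgeR adjusted p = 0.611). The genotype difference on day 6 was lower than that on day 1 by 0.45 (SE 0.13, edgeR adjusted p = 0.0161), which did not pass in a fit of these groups alone (edgeR adjusted p = 0.0632, over 32 alternatives 4.19e-06 to 0.0632). This comparison of the 2 days was added after the levels had been seen. Ptbp1's exons overlap Plppr3 and E130317F20Rik on the other strand, which had 91 to 667 and 0 to 50 counts per library. The use of strand in counting is not given in the sources used here, so reads of these genes cannot be told apart where they overlap.

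Ptbp2, the paralog known from neurons, changed less than Ptbp1 over time and passed the test as lower in KO-labelled libraries on days 0 and 6. On day 0 it was at 60.1 and 60.1 CPM in WT and at 42.8, 47.1 and 44.0 in KO-labelled libraries. On day 6 it was at 39.9, 36.5 and 42.4 CPM in WT and at 27.8, 30.7 and 30.3 in KO-labelled libraries. The genotypes did not overlap on either day. The log2 difference was -0.43 on day 0 (SE 0.099, edgeR adjusted p = 0.00334) and -0.42 on day 6 (SE 0.092, edgeR adjusted p = 0.000698). The day 0 call was lost without WT replicate 1 (-0.41, edgeR adjusted p = 0.0578, over 32 alternatives 0.000268 to 0.0578), which leaves a single WT library. On day 1 KO-labelled libraries were at 37.9, 50.1 and 39.3 CPM against 48.0, 48.2 and 48.3 in WT, with replicate 2 again the one near WT. With it the difference did not pass (-0.18, edgeR adjusted p = 0.107), and without it the difference was -0.34 (edgeR adjusted p = 0.00113, over 32 alternatives 0.00113 to 0.379). On day 3, at 47.4, 41.7 and 41.6 CPM against 50.1, 49.9 and 45.2 in WT, the difference did not pass either (-0.15, edgeR adjusted p = 0.181). It passed in 4 of 32 alternatives (adjusted p 0.0236 to 0.388), among them the one without replicate 2 of the KO-labelled day 1 group (-0.19, edgeR adjusted p = 0.0236). Without that library Ptbp2 was called lower on all 4 days, but with all libraries only on days 0 and 6. Its omission leaves the day 3 counts as they were and alters only the shared fit and scaling. From day 0 to day 6 Ptbp2 fell by 0.60 in WT and by 0.59 in KO-labelled libraries on the log2 scale (edgeR adjusted p = 1.33e-05 and 4.45e-06).

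The Ptbp1 TPM per Ptbp2 TPM went down in both genotypes. It was 15.4 ± 0.778 (SD, n = 2) in WT on day 0 and 7.12 ± 0.751 (SD, n = 3) on day 6. In KO-labelled libraries it was 22.7 ± 1.22 on day 0 and 8.83 ± 0.682 on day 6 (SD, n = 3 each). The ratio in KO-labelled libraries lay above that in WT on days 0, 3 and 6 with no overlap, and on day 1 it ran from 8.02 to 15.5 against 8.15 to 8.53 in WT, with the low value in replicate 2.

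**Figure D2:**
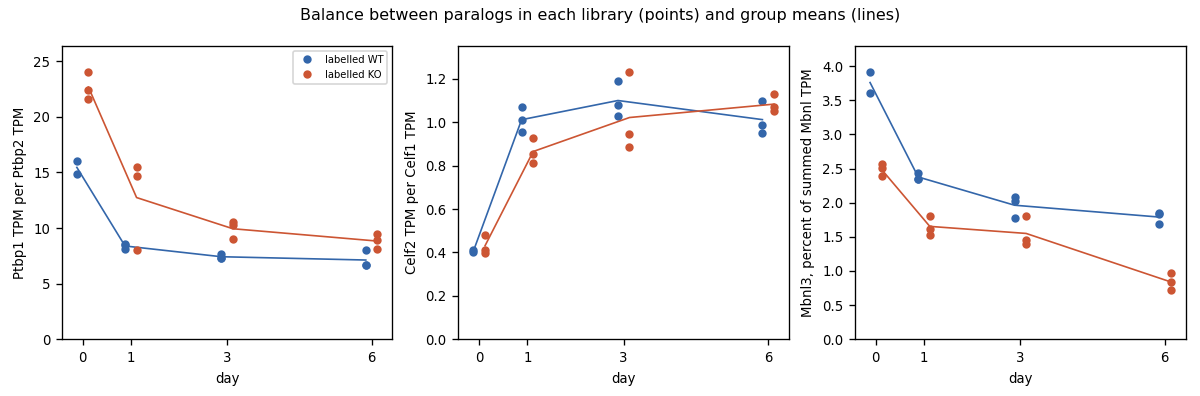
Balance between paralogs in each library against day, computed from TPM: Ptbp1 per Ptbp2, Celf2 per Celf1, and Mbnl3 as a percentage of the summed MBNL TPM, with 1 point per library and lines through group means. Ptbp1 per Ptbp2 falls from 14.9 to 24 on day 0 to 6.67 to 9.48 on day 6, and Celf2 per Celf1 rises from 0.399 to 0.481 to 0.951 to 1.13.

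Celf1 and Celf2 moved in opposite directions in both genotypes. Celf1, which favours fetal splice forms in striated muscle, was at 143 and 139 CPM in WT on day 0 and at 84.3, 77.8 and 99.6 on day 6. In KO-labelled libraries it went from 141, 149.6 and 156 CPM to 102, 97.9 and 97.2. No day 6 library overlapped the day 0 libraries of its genotype, and the log2 change was -0.69 in WT (SE 0.092, edgeR adjusted p = 7.04e-07) and -0.59 in KO-labelled libraries (SE 0.083, edgeR adjusted p = 1.33e-06). Celf2 went from 92.2 and 90.8 CPM to 123, 109.6 and 137 in WT, and from 107, 99.5 and 100.4 to 153, 145 and 145 in KO-labelled libraries. Its highest WT levels came earlier, on day 3 (147, 146 and 153 CPM). Celf2 rose by 0.43 in WT (SE 0.086, edgeR adjusted p = 0.000143) and by 0.53 in KO-labelled libraries (SE 0.076, edgeR adjusted p = 1.4e-06). Celf2 TPM per Celf1 TPM went from 0.407 ± 0.00849 (SD, n = 2) to 1.01 ± 0.0781 (SD, n = 3) in WT and from 0.431 ± 0.0441 to 1.08 ± 0.0416 (SD, n = 3 each) in KO-labelled libraries.

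Between genotypes the CELF differences were small. Celf1 was higher in KO-labelled libraries by 0.21 on day 1 and by 0.21 on day 3 (SE 0.083 each, edgeR adjusted p = 0.0465 and 0.0475), with no overlap of groups on either day. These calls were lost in 26 and 28 of 32 alternatives, whose adjusted p ran from 0.0293 to 0.18 and from 0.0293 to 0.95. Without replicate 2 of the KO-labelled day 1 group the day 1 value was 0.18 (edgeR adjusted p = 0.116), and without replicate 1 of the KO-labelled day 3 group the day 3 value was 0.11 (edgeR adjusted p = 0.322). On day 6 Celf1 overlapped between genotypes (0.18, SE 0.084, edgeR adjusted p = 0.0831), and it passed in 1 of 32 alternatives, without WT replicate 3 (0.26, edgeR adjusted p = 0.017, over 32 alternatives 0.017 to 0.963). Celf2 passed on day 6 only among the 4 days (0.26, SE 0.075, edgeR adjusted p = 0.00683), with 145 to 153 CPM in KO-labelled libraries above the 109.6 to 137 CPM in WT. The call was lost in 5 of 32 alternatives, among them those without replicate 1 of the KO-labelled day 6 group (0.21, edgeR adjusted p = 0.0578) and without WT replicate 2 (0.19, edgeR adjusted p = 0.0577). On the TPM scale that difference was 0.08 (limma on log2(TPM + 1), adjusted p = 0.611, over 32 alternatives 0.00183 to 0.611).

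Within the MBNL family Mbnl3 fell in both genotypes, Mbnl1 fell in KO-labelled libraries and did not pass the test in WT, and Mbnl2 changed little. Mbnl3, a family member linked to proliferating myoblasts, was at 25.1 and 26.2 CPM in WT on day 0, at 15.4, 15.4 and 14.3 on day 1, at 12.2, 14.4 and 14.6 on day 3, and at 12.5, 11.6 and 14.0 on day 6. KO-labelled libraries held 15.9, 14.7 and 16.0 CPM on day 0, at 9.11, 13.1 and 8.82 on day 1, at 7.74, 8.44 and 9.96 on day 3, and at 5.56, 4.82 and 3.83 on day 6. On every day all KO-labelled libraries lay below all WT libraries, and the KO-labelled libraries of day 0 overlapped WT of day 1. Mbnl3 passed the test as lower in KO-labelled libraries on all 4 days, with log2 differences of -0.73, -0.54, -0.66 and -1.42 (SE 0.14, 0.14, 0.14 and 0.15, edgeR adjusted p = 0.000889, 0.0029, 0.000559 and 4.52e-08). All 4 calls held in each of 32 alternatives, and without replicate 2 of the KO-labelled day 1 group the day 1 value was -0.77. The fall from day 0 to day 6 was 2.02-fold in WT and 3.28-fold in KO-labelled libraries, and the change differed between genotypes by -0.70 (log2, SE 0.21, edgeR adjusted p = 0.0284). This last call was lost in 8 of 32 alternatives (adjusted p 0.00271 to 0.287), 6 of which leave out 1 library, and with limma on log2(TPM + 1) the value was -0.32 (adjusted p = 0.287).

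Mbnl1, the main MBNL protein of adult muscle, did not pass the test on any later day in WT and was lower late in KO-labelled libraries. With only the groups compared, its day 1 change in WT did pass (-0.20, edgeR adjusted p = 0.0061, over 32 alternatives 0.0061 to 0.731). In WT it was at 186 and 183 CPM on day 0, between 155 and 180.2 on days 1 and 3, and at 180.4, 155 and 206 on day 6. Its KO-labelled values were 165, 168 and 184 CPM on day 0, at 155, 199.6 and 158 on day 1, at 137, 134 and 137 on day 3, and at 133, 121 and 121 on day 6. The genotypes overlapped on days 0 and 1 and were separate on days 3 and 6. The log2 difference was -0.33 on day 3 (SE 0.094, edgeR adjusted p = 0.00607) and -0.53 on day 6 (SE 0.094, edgeR adjusted p = 7.13e-05). Within KO-labelled libraries the change since day 0 was -0.35 on day 3 and -0.47 on day 6 (SE 0.094 each, edgeR adjusted p = 0.00317 and 0.000128). The day 3 change did not pass with limma on log2(TPM + 1) (-0.23, adjusted p = 0.138, over 32 alternatives 0.000215 to 0.138) or on log2(TPM + 0.1). In WT the change was -0.03 on day 6 (SE 0.10, edgeR adjusted p = 0.814). The difference between these day 6 changes was -0.44 (SE 0.14, edgeR adjusted p = 0.043, lost in 17 of 32 alternatives with adjusted p from 0.00313 to 0.145).

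Mbnl2, whose protein overlaps in function with that of Mbnl1, had group means between 159.5 and 198.1 CPM. Neighbouring groups overlapped throughout the order of its levels. Only 1 comparison between genotypes passed: on day 3 KO-labelled libraries held 158 to 172 CPM against 191 to 203 in WT (log2 difference -0.26, SE 0.081, edgeR adjusted p = 0.0134). This call was lost without replicate 3 of the KO-labelled day 3 group (-0.22, edgeR adjusted p = 0.0636, over 32 alternatives 0.000685 to 0.0636). Mbnl2 rose in WT on day 3 by 0.22 (SE 0.091, edgeR adjusted p = 0.0448), a call lost in 7 of 32 alternatives with adjusted p from 0.0014 to 0.286. Its day 6 changes of 0.17 in WT and 0.15 in KO-labelled libraries did not pass (edgeR adjusted p = 0.111 and 0.097), but did in 8 and 6 of 32 alternatives (adjusted p 0.0149 to 0.462 and 0.0236 to 0.233). As shares of the summed MBNL TPM on day 6, Mbnl1 made up 43.9 ± 2.21% in WT and 36.0 ± 1.36% in KO-labelled libraries, Mbnl2 54.3 ± 2.31% and 63.1 ± 1.28%, and Mbnl3 1.79 ± 0.0872% and 0.841 ± 0.123% (SD, n = 3 each). On day 0 the Mbnl1 share was 45.3% in both genotypes, and the Mbnl3 share was 3.76 ± 0.212% (SD, n = 2) in WT and 2.49 ± 0.0874% (SD, n = 3) in KO-labelled libraries.

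Rbfox2, which binds UGCAUG-type elements beside muscle exons, rose on leaving growth medium in both genotypes and went on rising in KO-labelled libraries. In WT it was at 244 and 235 CPM on day 0 and between 286 and 323 CPM on all later days. Among KO-labelled libraries Rbfox2 was at 251, 258 and 259 CPM on day 0, at 296, 303 and 319 on day 1, at 368, 346 and 319.8 on day 3, and at 396, 388 and 397 on day 6. The day 6 KO-labelled libraries lay above every other library. The change by day 6 was 0.33 in WT (SE 0.074, edgeR adjusted p = 0.00049) and 0.62 in KO-labelled libraries (SE 0.065, edgeR adjusted p = 1.19e-08). Between genotypes Rbfox2 was higher in KO-labelled libraries by 0.39 on day 6 (SE 0.065, edgeR adjusted p = 3.34e-05), in all 32 alternatives. The day 3 difference of 0.18 (SE 0.065, edgeR adjusted p = 0.029) was lost in 19 of them (adjusted p 0.0122 to 0.722). The changes since day 0 differed between genotypes by 0.30 on day 6 (SE 0.098, edgeR adjusted p = 0.0472), a call lost in 25 of 32 alternatives (adjusted p 0.0177 to 0.309). From day 1 to day 6, a contrast added after the levels had been seen, the difference between the changes was 0.35 (SE 0.092, edgeR adjusted p = 0.00792, lost in 1 of 32 alternatives).

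Rbm20, the titin splicing regulator, rose in both genotypes, but on day 3 it was lower in KO-labelled libraries. On day 0 it was at 28.2 and 28.2 CPM in WT and at 29.6, 31.5 and 34.4 in KO-labelled libraries. On day 3 it was at 61.9, 65.2 and 58.5 CPM in WT and at 49.4, 43.9 and 44.4 in KO-labelled libraries. On day 6 it was at 56.0, 51.6 and 65.2 CPM in WT and at 58.4, 60.2 and 55.5 in KO-labelled libraries. The genotypes were apart on day 3 and overlapped on day 6. The log2 difference was -0.43 on day 3 (SE 0.090, edgeR adjusted p = 0.000435) and 0.01 on day 6 (SE 0.089, edgeR adjusted p = 0.931). The rise since day 0 was 1.13 in WT and 0.53 in KO-labelled libraries on day 3, and these rises differed by -0.61 (SE 0.14, edgeR adjusted p = 0.0049), in all 32 alternatives. By day 6 the rises were 1.03 (SE 0.10) and 0.87 (SE 0.091), which did not differ by the test (-0.16, SE 0.14, edgeR adjusted p = 0.528).

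Rbm24, an activator of muscle exons whose expression marks differentiating muscle, showed the greatest change of the 10 and crossed between genotypes. In WT it had 20 and 21 counts on day 0 (0.88 and 0.972 CPM) and stood at 18.6, 14.5 and 29.7 CPM on day 1, at 47.7, 39.7 and 40.3 on day 3, and at 39.7, 36.9 and 40.6 on day 6. In KO-labelled libraries it had 6, 10 and 11 counts on day 0 (0.272, 0.467 and 0.51 CPM) and stood at 8.71, 7.87 and 9.89 CPM on day 1, at 80.2, 45.9 and 52.7 on day 3, and at 81.2, 92.1 and 96.2 on day 6. All KO-labelled libraries lay below WT on days 0 and 1 and above WT on day 6, with an overlap on day 3. On day 0 the difference did not pass at these few counts (log2 -1.15, SE 0.61, edgeR adjusted p = 0.231), although DESeq2 called it (adjusted p = 0.0357, over 32 alternatives 0.0098 to 0.46). On day 1 Rbm24 was 2.37-fold lower in KO-labelled libraries (-1.25, SE 0.21, edgeR adjusted p = 4.2e-05), and -1.19 without their replicate 2. On day 3 it was 0.49 higher (SE 0.18, edgeR adjusted p = 0.0339), a difference of 0.21 without replicate 1 of that group (edgeR adjusted p = 0.353). That call was lost in 14 of 32 alternatives, whose adjusted p ran from 0.00655 to 0.353. On day 6 it was 2.3-fold higher (1.20, SE 0.18, edgeR adjusted p = 9.86e-06).

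The genotype difference of Rbm24 on day 6 exceeded that on day 1 by 2.45 on the log2 scale (SE 0.28, edgeR adjusted p = 7.02e-07), in all 32 alternatives. This contrast was added after the crossing had been seen, so it gives its size and is no independent test of it. From day 3 to day 6 the WT mean went from 42.6 ± 4.47 to 39.1 ± 1.96 CPM and the mean of KO-labelled libraries from 59.6 ± 18.1 to 89.8 ± 7.72 CPM (SD, n = 3 each). Over the whole course Rbm24 rose 42.0-fold in WT and 213-fold in KO-labelled libraries, folds that rest on the low counts of day 0.

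Across the 10 regulators, the number that differed between genotypes went from 2 on day 0 to 4 on day 1, 8 on day 3 and 6 on day 6. The share of all genes tested was 17.5%, 42.2%, 43.2% and 42.9% on those days. On day 0 both were lower in KO-labelled libraries (Mbnl3 and Ptbp2), beside 10.1% of all genes lower and 7.36% higher. On day 1, 2 were higher (Celf1 and Ptbp1) and 2 lower (Mbnl3 and Rbm24), beside 22.9% and 19.2% of all genes. Without replicate 2 of the KO-labelled day 1 group, Celf1 dropped out and Ptbp2 joined those lower. On day 3, 4 were higher (Celf1, Rbfox2, Rbm24 and Ptbp1) and 4 lower (Mbnl1, Mbnl2, Mbnl3 and Rbm20), beside 24% and 19.2%. On day 6, 3 were higher (Celf2, Rbfox2 and Rbm24) and 3 lower (Mbnl1, Mbnl3 and Ptbp2), beside 22% and 20.8%. The median difference over the 10 was -0.01, -0.02, -0.06 and -0.03 on the 4 days, beside 0.00, 0.03, 0.04 and 0.00 over all genes. The day 3 count ranged from 4 to 8 when single libraries were left out and from 4 to 7 over the other alternatives.

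**Figure D3:**
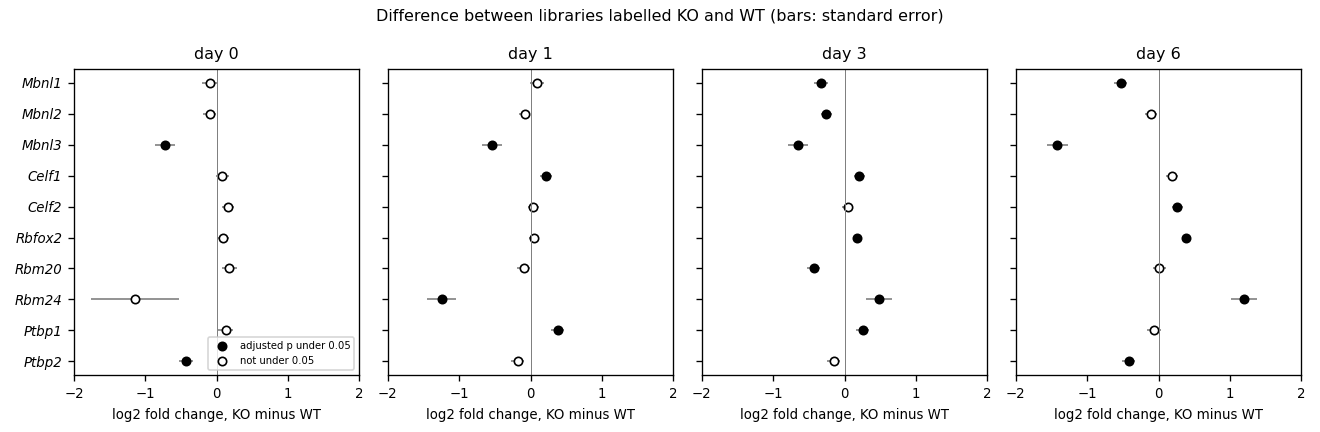
Log2 fold change of each regulator between KO-labelled libraries and WT on days 0, 1, 3 and 6, with bars of 1 standard error from the edgeR fit and filled points for an adjusted p under 0.05. Mbnl3 lies below 0 on all 4 days, between -0.54 and -1.42, and Rbm24 goes from -1.25 on day 1 to 1.20 on day 6.

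Within WT, 8 regulators had changed by day 1, 9 by day 3 and 8 by day 6, beside 54.7%, 58.2% and 63.6% of all genes. Within KO-labelled libraries the numbers were 7, 8 and 9, beside 52.3%, 57.6% and 70%. On each later day and in both genotypes, Celf1, Mbnl3 and Ptbp1 were lower and Celf2, Rbfox2, Rbm20 and Rbm24 higher than on day 0. The Mbnl3 call on day 1 in KO-labelled libraries (-0.59 by edgeR) was lost with limma on log2(TPM + 1) (-0.29, adjusted p = 0.0523) and on log2(TPM + 0.1) (-0.41, adjusted p = 0.0699, over 32 alternatives 1.73e-05 to 0.0699). The Ptbp1 change was -1.18 on day 1 and -1.70 on day 6 in WT, and -0.92 and -1.89 in KO-labelled libraries (SE 0.10 and 0.093 for the day 1 changes). Without replicate 2 of the KO-labelled day 1 group, that group's day 1 change was -0.76, and Ptbp2 also passed as lower on day 1 (-0.20, edgeR adjusted p = 0.0308, over 32 alternatives 0.0308 to 0.992). The change since day 0 differed between genotypes for 0 of the 10 on day 1 by edgeR (3.95% of all genes), with 0 at an unadjusted p under 0.05 and 0 by DESeq2 or by limma on log2(TPM + 1). Without replicate 2 of the KO-labelled day 1 group, Ptbp1 passed (0.36, edgeR adjusted p = 0.0111, over 32 alternatives 0.0111 to 0.6). The numbers were 1 on day 3 (Rbm20, beside 10.7% of all genes) and 4 on day 6 (Mbnl1, Mbnl3, Rbfox2 and Rbm24, beside 13% of all genes). With either WT day 0 library left out none of these 4 passed, and WT day 0 is then a single library. Between day 1 and day 6 the change differed for 5 of the 10 (Mbnl1, Mbnl3, Rbfox2, Rbm24 and Ptbp1, beside 22.6% of all genes). This contrast was added after the levels had been seen, so it is no independent test. It does not compare day 0 levels, but the day 0 libraries still enter the shared fit.

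**Figure D4:**
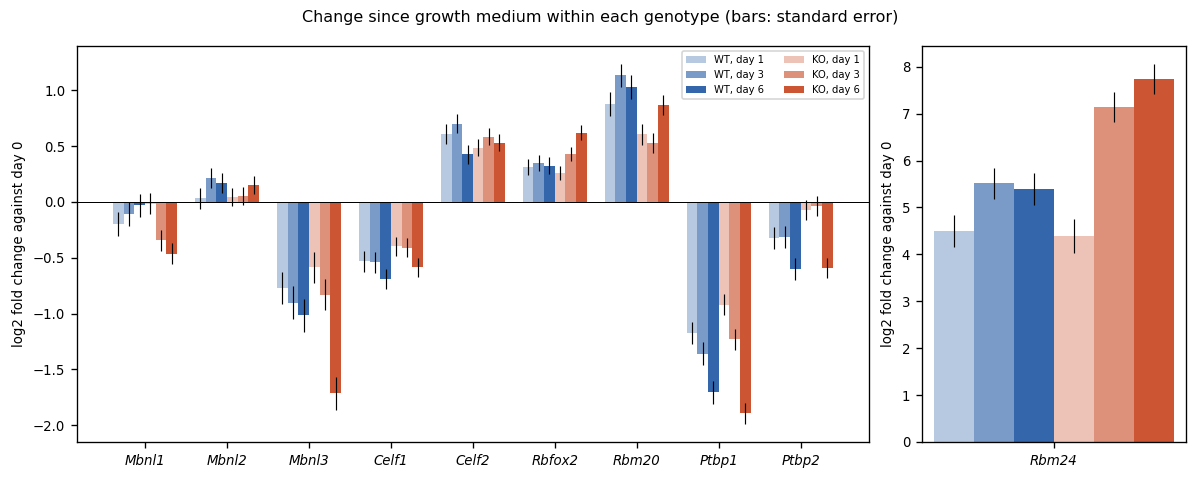
Log2 fold change of each regulator against day 0 within each genotype (WT in blues, KO-labelled libraries in reds, darker for later days) with bars of 1 standard error, and Rbm24 on an axis of its own. Ptbp1 reaches -1.70 in WT and -1.89 in KO-labelled libraries on day 6, and Rbm24 5.39 and 7.74.

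Counts and TPM of the same gene differ by a factor that grows with the length of the transcripts to which the reads were assigned. This length factor, expressed relative to the median gene of each library, reads the mixture of transcripts of a gene rather than its level, but does not say which exon differs. It could be tested for 9 regulators (all but Rbm24, which had fewer than 20 counts in some libraries) among 11017 genes, with limma. Celf1 was the only one of the 9 in which it passed the test with all libraries, and without replicate 2 of the KO-labelled day 6 group Ptbp2 passed as well, as shorter on day 6 than on day 0 in KO-labelled libraries (-0.10 on the log2 scale, limma adjusted p = 0.0103, over 26 alternatives 0.0103 to 0.917). The Celf1 factor was 1.83 and 1.85 in WT on day 0 and 2.10, 2.06 and 1.99 on day 6. In KO-labelled libraries it was 1.87, 1.85 and 1.82 on day 0 and 2.10, 2.22 and 2.15 on day 6, with no overlap between the days in either genotype. The increase was 11.4% in WT and 16.8% in KO-labelled libraries (limma adjusted p = 0.000819 and 2.81e-06), where 2.03% and 3.71% of all genes changed. In a fit of these 2 groups alone, the WT change was the same size but did not pass (adjusted p = 0.219, over 26 alternatives 0.000304 to 0.219). Between genotypes, 0 of the 9 passed by limma on days 0, 1, 3 and 6, beside 0.0726%, 0.0908%, 0.218% and 0.726% of all genes, and 0, 2, 0 and 2 had an unadjusted p under 0.05.

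Genes with exons known to be controlled by these regulators were read in the same way, from a list of 30 of which 20 could be tested. Between genotypes 0 of them differed on day 0, 1 was longer in KO-labelled libraries on day 1 (Pdlim7, not repeated without replicate 2 of that group), and 2 were shorter on day 3 (Pdlim5 and Ldb3). Of all genes 0.0726%, 0.0908% and 0.218% differed on days 0, 1 and 3. On day 6, 2 were longer (Fn1, by only 1.14%, and Tpm2, by 10%) and 2 shorter (Pdlim5, -24.4%, and Ldb3, -25%), where 0.726% of all genes differed. From day 0 to day 6, 3 were shorter in WT (Pdlim5, Pdlim7 and Fn1), and in KO-labelled libraries 4 were shorter (Ldb3, Pdlim5, Pdlim7 and Tpm1) and 3 longer (Enah, Tpm2 and Capzb), beside 2.03% and 3.71% of all genes. These genes are named after their values were seen. Some of their changes from day 0 to day 6 were small: -2.3% for Fn1 in WT, and 1.96% for Enah and 3.91% for Capzb in KO-labelled libraries. Pdlim5, a Z-disc adaptor, had length factors of 1.71 and 1.72 in WT and 1.71, 1.69 and 1.72 in KO-labelled libraries on day 0. On day 6 it was at 1.44, 1.43 and 1.48 in WT and at 1.13, 1.09 and 1.07 in KO-labelled libraries, so the genotypes were alike on day 0 and apart on day 6. The difference on day 6 was -24.4% (limma adjusted p = 2.78e-08), and the fall since day 0 was -15.6% in WT and -35.8% in KO-labelled libraries (limma adjusted p = 2.95e-05 and 6.99e-11). Ldb3, which encodes a Z-disc protein and is a known MBNL target, was at 1.06, 1.24 and 1.17 in WT and at 0.881, 0.874 and 0.845 in KO-labelled libraries on day 6, a difference of -25% (limma adjusted p = 0.00178). Tpm2, a tropomyosin, was at 1.04, 1.02 and 1.04 in WT and at 1.13, 1.13 and 1.14 in KO-labelled libraries on day 6 (10% longer, limma adjusted p = 0.0147). The median over the 20 genes was 0.00 on the log2 scale in all 6 comparisons. It does not cover Clcn1, Atp2a1, Ryr1, Tnnt3, Cacna1s, Dmd, Ryr2, Trdn, Mef2c and Neb. These did not meet the filter of at least 20 counts in every library.

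**Figure D5:**
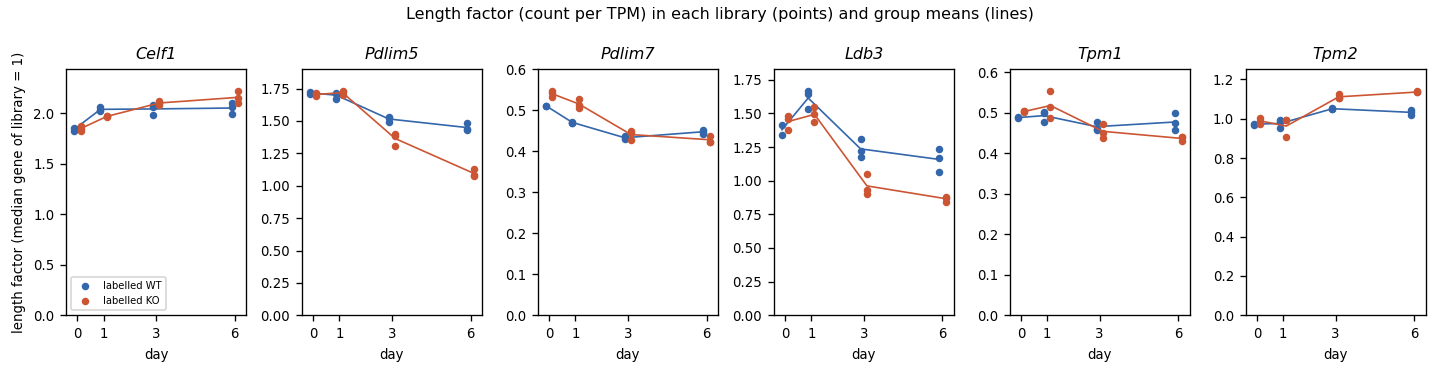
Length factor (count per TPM relative to the median gene of the library) against day for Celf1 and 5 genes with exons known to be controlled by these regulators, with 1 point per library and lines through group means. On day 6 KO-labelled libraries lie below WT for Pdlim5 (1.07 to 1.13 against 1.43 to 1.48) and Ldb3.

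The levels of the same 30 genes rose with differentiation for most of them. Of 28 tested, 22 were higher and 1 lower on day 6 than on day 0 in WT, and 21 higher and 2 lower in KO-labelled libraries, with list medians of 0.96 and 1.64 beside 0.05 and 0.05 over all genes, of which 32.6% and 36.6% were higher. Between genotypes on day 6, 18 were higher and 2 lower in KO-labelled libraries, with a median of 0.67 beside 0.00, where 22% and 20.8% of all genes were higher and lower. Cacna1s, the voltage sensor of the T-tubule, had 0 counts in both WT day 0 libraries and 334, 202 and 316 counts on day 6, at least 90-fold higher against a floor of 3 counts per library. Trdn, which encodes the junctional protein triadin, was at 4.9, 4.39 and 4.49 CPM in WT and at 43.1, 56.9 and 54.5 in KO-labelled libraries on day 6 (11.2-fold, edgeR adjusted p = 2.53e-11). Mef2c, a muscle transcription factor, had 12, 11 and 13 counts in WT and 154, 183 and 167 in KO-labelled libraries on day 6 (edgeR adjusted p = 1.07e-07). Tnnt3, fast skeletal troponin T, had 2 and 4 counts in WT on day 0 and stood at 105, 104 and 85.5 CPM on day 6. Fn1, the fibronectin gene, was at 18700, 18000 and 21800 CPM in WT and at 11300, 8630 and 7770 in KO-labelled libraries on day 6, and Actn1, non-muscle alpha-actinin, was 1.52-fold lower there (edgeR adjusted p = 9.84e-08 and 3.01e-07). Camk2d was the single gene of the list that was lower on day 6 in WT (-0.27, SE 0.091, edgeR adjusted p = 0.0127).

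Among 13 paralogs and partners of the 10, 9 were expressed enough to be tested, and on day 6 3 were higher and 2 lower in KO-labelled libraries, beside 22% and 20.8% of all genes. Celf4, another CELF protein, fell with differentiation and was lower in KO-labelled libraries on all 4 days. It was at 40.6 and 38.8 CPM in WT and at 27.3, 23.2 and 22.5 in KO-labelled libraries on day 0, and at 17.6, 19.3 and 14.6 against 4.28, 4.52 and 4.92 CPM on day 6. The groups did not overlap on either day, and the day 6 difference was -1.91 (SE 0.15, edgeR adjusted p = 4.54e-10). Rbfox1, the muscle and neuronal paralog of Rbfox2, was named after its values were seen because its mean was under 5 CPM. It had 13, 7 and 7 counts in WT and 85, 113 and 103 in KO-labelled libraries on day 6 (log2 difference 3.48, SE 0.38, edgeR adjusted p = 1.11e-07). Rbm38, a differentiation-linked paralog of Rbm24, was at 37.5, 33.4 and 30.3 CPM in WT and at 48.7, 60.7 and 64.8 in KO-labelled libraries on day 6 (0.79, SE 0.18, edgeR adjusted p = 0.000819). Hnrnpl, an hnRNP that acts with PTB proteins, was 1.27-fold higher and Ptbp3 1.2-fold lower (edgeR adjusted p = 0.000673 and 0.0475). Hnrnpll fell 1.98-fold in WT by day 6 (edgeR adjusted p = 5.92e-09).

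The general splicing factors fell with differentiation in both genotypes. By day 6, 11 of 12 tested SR proteins, 20 of 21 hnRNP proteins and 23 of 25 core spliceosome genes were lower than on day 0 in WT, and 12, 21 and 24 were in KO-labelled libraries, with none higher in either. Of all genes 31.1% were lower in WT and 33.5% in KO-labelled libraries. The list medians in WT were -1.19, -0.85 and -1.05 beside 0.05 over all genes. Examples were Srsf1 (3.02-fold lower in WT), Srsf2 (2.94-fold), Hnrnpab (3.15-fold), Hnrnpm (2.73-fold), Snrpd1 (2.93-fold) and Snrpf (2.52-fold), with edgeR adjusted p of 3.55e-09 or less. Of 25 other tested splicing regulators 17 fell and 2 rose in WT by day 6: Sfpq fell 3.06-fold, and Rbpms and Rbm5 rose 1.39-fold and 1.18-fold.

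Most of these general factors differed between genotypes on days 1 and 3, all but 1 upward in KO-labelled libraries, and fewer did on day 6. Of all genes tested, 22.9%, 24% and 22% were higher and 19.2%, 19.2% and 20.8% lower on days 1, 3 and 6. The numbers higher were 9, 16 and 18 (SR, hnRNP and core spliceosome) on day 1 and 10, 18 and 18 on day 3, with 0, 0 and 0 lower on day 1 and 0, 0 and 1 lower on day 3. On day 6, 1, 4 and 8 were higher and 2, 0 and 0 lower. In growth medium (day 0) the numbers were 0, 2 and 3 higher and 0, 0 and 0 lower, beside 7.36% and 10.1% of all genes. The day 0 medians were 0.07, 0.10 and 0.14, beside 0.00 over all genes. The SR median was 0.49, 0.44 and 0.12 on days 1, 3 and 6, that of hnRNP proteins 0.43, 0.44 and 0.09, and that of core spliceosome genes 0.28, 0.40 and 0.12, beside 0.03, 0.04 and 0.00 over all genes. Without replicate 2 of the KO-labelled day 1 group, 8, 15 and 19 genes passed on day 1, while the day 6 hnRNP count went from 4 to 8. The day 0 counts were then 0, 3 and 7. On day 6 Srsf2 was 1.2-fold, Hnrnph3 1.38-fold, Hnrnpul1 1.3-fold, Sf3a2 1.53-fold and Snrpf 1.41-fold higher in KO-labelled libraries, and Srsf11 and Srsf9 were each 1.18-fold lower. Among the other regulators on that day, Rbpms (1.6-fold) and Rbm4 (1.42-fold) were higher and Khdrbs3 (2.44-fold) and Rbpms2 (1.4-fold) lower.

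The SR protein kinases, which phosphorylate SR proteins, moved in both directions. Of 9 tested, 6 rose and 2 fell in WT by day 6, and 6 rose and 1 fell in KO-labelled libraries, where 32.6% and 36.6% of all genes rose and 31.1% and 33.5% fell. Dyrk1b rose 3.24-fold and Clk1 2.27-fold in WT, whereas Srpk1 fell 2.29-fold and Dyrk1a 1.23-fold. Srpk3, the muscle-specific kinase of the family, had 0 counts in all 5 day 0 libraries and reached 5.59, 5.5 and 3.9 CPM in WT and 21.7, 25.6 and 20.8 CPM in KO-labelled libraries on day 6. These groups did not overlap, and the day 6 difference was 4.54-fold (log2 2.18, SE 0.21, edgeR adjusted p = 3.48e-08). On the same day 2 of the 9 kinases were higher and 3 lower in KO-labelled libraries, beside 22% and 20.8% of all genes. Dyrk1a was 1.44-fold higher, and the largest decreases were those of Srpk2 (1.31-fold) and Clk1 (1.26-fold).

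As a description without a test, the genes whose log2 CPM was most like that of each regulator over the 23 libraries were sought among 10898 genes. The libraries share time and genotype groups, so high correlations were common. Ptbp1 was most like Grk6 (r = 0.991), H2afy (0.985) and Lrrc59 (0.984), and Celf1 most like Med14 (0.980), Heatr3 (0.969) and Hcfc1 (0.966). Rbm24 was most like AI464131 (r = 0.983), Chrng (0.982), which encodes the embryonic acetylcholine receptor subunit, and Klhl41 (0.979), a sarcomere-associated gene. For Rbfox2 the nearest were Akap6 (r = 0.961), Igf2r (0.959) and Cand2 (0.958), for Celf2 Rreb1 (0.938), Gab1 (0.934) and Ccdc141 (0.930), and for Rbm20 Svil (0.949), Col5a3 (0.949) and Mbd5 (0.935). Mbnl3 was nearest to Cxadr (r = 0.946), Fam171a1 (0.944) and Emp1 (0.940), Mbnl1 to Uggt2 (0.905), Cdc14b (0.900) and Serp1 (0.894), Mbnl2 to Xist (0.909), Mdm4 (0.902) and Nek1 (0.864), and Ptbp2 to Rabif (0.914), Gpsm2 (0.898) and Gpr89 (0.894). Among the regulators themselves, the strongest positive values were those of Celf1 with Ptbp1 (0.90) and Rbm20 with Rbm24 (0.88), and the strongest negative those of Rbm24 with Ptbp1 (-0.93), Rbm20 with Ptbp1 (-0.92) and Mbnl3 with Rbfox2 (-0.91).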

How the data were processed

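The authors deposited estimated counts per gene, as whole numbers, and a second table of TPM for the same libraries. Bowtie2, RSEM and the mm10 build are named in the submitters' processing notes, with no version or role; the annotation and the use of strand are not given in the sources used here. All columns of both tables were matched to samples by name.

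Counts, rounded (which changed none), were tested with edgeR 4.0.16 in R 4.3.3: quasi-likelihood F-test, TMM scaling, filterByExpr (minimum count 10, minimum total 15), 1 group-means fit over 23 libraries, and Benjamini-Hochberg adjustment over 14187 genes in each of 14 contrasts at 0.05. Genes with 0 counts in every library numbered 12326. Standard errors come from the F statistic. CPM are counts over the TMM-scaled library size, and log2 CPM used a prior count of 2. A floor of 3 counts per library covers counting error only.

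The length factor is log2(count/TPM) minus its library median, for 11017 genes with at least 20 counts in every library, tested with limma 3.58.1. Motif matches came from RefSeq promoter tables and overlaps from GENCODE M21 exons. The tests were run on simulated data first.

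Named genes were the 10 regulators, Runx1, from each list up to 2 with the most positive and 2 with the most negative change past the threshold with a mean of at least 5 CPM (KO against WT on day 6, and WT day 6 against day 0), and the 3 genes most like each regulator; 1 gene that this rule names is not reported here. The regulators and the lists were chosen with earlier results of these data known. Alternatives were DESeq2 1.42.0, RLE scaling, library size only, a fit without the low-count filter, genes with a mean count over libraries of 50 or more, limma on TPM after adding 1 or 0.1 and taking log2, only the groups compared, a replicate block and omission of each library. For the length factor they were a minimum of 100 counts, only the groups compared, the block and omission of each library.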

Additional observations from a re-analysis of the deposited data

Results flagged for a closer look

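The changes listed here differed between genotypes by an interaction term in the edgeR fit (quasi-likelihood test, Benjamini-Hochberg adjustment). For the change from day 0 to day 3, Rbm20 differed by -0.61 (adjusted p = 0.0049), with all 3 KO-labelled libraries below all WT libraries on day 3. For the change from day 0 to day 6, Rbm24 differed by 2.35 (adjusted p = 0.0156), Mbnl3 by -0.70 (0.0284), Mbnl1 by -0.44 (0.043) and Rbfox2 by 0.30 (0.0472). All 4 of these day 6 calls were lost without either WT day 0 library, and over 32 alternatives they were lost in 3 (Rbm24, adjusted p up to 0.0971), 8 (Mbnl3, up to 0.287), 17 (Mbnl1, up to 0.145) and 25 (Rbfox2, up to 0.309). The change from day 1 to day 6 was compared after the crossing of Rbm24 had been seen, so its values describe that pattern and are no independent test of it. For this change, Rbm24 differed by 2.45 (adjusted p = 7.02e-07), Mbnl1 by -0.62 (0.00159), Mbnl3 by -0.88 (0.00288), Rbfox2 by 0.35 (0.00792) and Ptbp1 by -0.45 (0.0161). Without replicate 2 of the KO-labelled day 1 group these last values were 2.37, -0.50, -0.68, 0.34 and -0.60, and all 5 remained past the threshold. With only the groups compared the Ptbp1 value was -0.44 (edgeR adjusted p = 0.0632, over 32 alternatives 4.19e-06 to 0.0632), and Rbfox2 did not pass with limma on log2(TPM + 0.1) (0.30, adjusted p = 0.0516, over 32 alternatives 0.000233 to 0.0516).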

How the results depend on the processing

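Alternatives were run for the 10 regulators; no value of theirs that passed the test reversed. The gene lists were repeated without 1 library only, and the length factors of the splicing targets and Runx1 under none. Other scalings and filters moved the count of regulators that differed between genotypes on day 3 from 8 to 5 with RLE size factors, 4 with library size only, 4 at a mean count of at least 50, and 5 with limma on log2(TPM + 1) or log2(TPM + 0.1). On day 1 it went from 4 to 2 with only the groups compared. For the interaction on day 3 the count went from 1 to 2 with no filter, DESeq2, log2(TPM + 0.1) or only the groups compared, and on day 6 from 4 to 2 with library size only or the replicate block and to 1 with log2(TPM + 1) or log2(TPM + 0.1). The Celf1 length factor change in WT left 0 regulators called with only the groups compared. Leaving out single libraries gave 1 to 2, 3 to 4, 4 to 8 and 5 to 7 regulators between genotypes on days 0, 1, 3 and 6, and 7 to 8, 8 to 9 and 8 to 9 in WT and 7 to 8, 8 to 8 and 9 to 10 in KO-labelled libraries on days 1, 3 and 6. It gave 0 to 1, 1 to 2 and 0 to 4 for the interaction on days 1, 3 and 6, 5 to 6 from day 1 to day 6, and 1 to 2 for the length factor in KO-labelled libraries. Replicate numbers did not pair the libraries (correlation of same-numbered deviations -0.240 to 0.116), and with them as a block 2, 3, 7 and 6 regulators differed between genotypes on days 0, 1, 3 and 6. The block gave 0, 1 and 2 for the interaction on days 1, 3 and 6. The log2(TPM + 0.1) scale shifted the median of all genes by up to 0.20 in the time comparisons and by -0.12 between genotypes on day 6, and the higher calls went from 55.5% to 34.3% of all calls on day 3 and from 51.4% to 34.7% on day 6. The causes of these changes were not tested. At 6 to 21 counts on day 0, the early Rbm24 values are imprecise.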
